A study of Mus musculus with 6 samples.

Results

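T and NK cell transcripts were examined in RNA from tumor-associated macrophages (TAMs) that had been sorted from mouse ovarian tumors. The set comprised 10 genes, Cd3d, Cd3e, Cd3g, Cd8a, Cd8b1, Lck, Cd28, Gzmb, Nkg7 and Ncr1, out of 56980 genes in the expression table. It was chosen by name through the Ensembl mouse gene identifiers, with no threshold on measured values but with earlier results of these data known. All 10 genes were present in the table and all were above 0 in each of the 6 libraries. None of the 9 members that could be tested passed the test for a difference between C5aR-/- and WT TAMs, by adjusted or unadjusted p. Of all 14776 tested genes, 0.0% passed by the adjusted p and 4.96% by the unadjusted p. The values of all 10 members overlapped between the genotypes, whereas the groups did not overlap for 21.3% of all tested genes. Members varied more between libraries of 1 genotype than between genotypes, which also held for the median tested gene. Genotype accounted for a median of 11.4% of variance on the log2 scale in members and 22.0% over all tested genes.

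The T cell receptor is a heterodimer that binds antigen and has no signaling tail of its own, so it reaches the cell surface only together with the CD3 γ, δ, ε and ζ chains, which carry the signaling motifs. CD8 is the coreceptor of cytotoxic T cells and brings the kinase Lck to the receptor, and CD28 supplies the costimulatory signal. NK cells kill without a rearranged receptor and share much of the cytotoxic granule content with CD8+ T cells. Macrophages do not assemble a CD3 complex, and CD3 transcripts are commonly used as a T cell signature in bulk tissue.

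The study asked how loss of C5aR, the receptor for complement fragment C5a encoded by C5ar1, changes the function and gene expression of TAMs. Both groups received an intraperitoneal injection of ID8, a mouse ovarian cancer cell line, and tumors were collected 2 months later. Live CD45+CD11b+Ly6G-F4/80+ cells were sorted as TAMs, a gate that named no T cell or NK cell marker, and their poly(A) RNA was sequenced. One group (WT TAM 1 to 3) came from wild-type C57BL/6 mice and the other (C5aR-/- TAM 1 to 3) from mice lacking C5aR on the C57BL/6 background. The mice were female and 6 to 8 weeks old when obtained, and so were older at the time of the sort. The knockout was carried by the whole animal, so any lymphocytes among the sorted cells also came from a host without C5aR. Nothing in the labels says that the 3 libraries of a group came from separate mice, so p-values measure the spread between these libraries.

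All values are TPM, a transcript level that is scaled to transcript length and to the sum of the library, and which can therefore be compared between genes. TPM keeps no read depth, so no counting error can be given for single values. Each library had between 14393 and 15015 genes at 1 TPM or more. C5ar1 was 86.5, 37.3 and 16.2 TPM in the WT libraries and 0.38, 0.11 and 0.05 TPM in the C5aR-/- libraries, so the labels matched the targeted gene in all 6. Its difference on the log2(TPM + 1) scale was -5.04 ± 0.56 (SE), with an adjusted p of 0.0666 (limma). The defining macrophage marker Adgre1, which encodes F4/80, was 114, 45.8 and 25.4 TPM in WT TAM 1, 2 and 3 and 91.1, 40.1 and 27.9 TPM in C5aR-/- TAM 1, 2 and 3.

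The genes for the CD3 γ, δ and ε chains lie within 40.1 kb on mouse chromosome 9 (GRCm38). Cd3g (chr9:44969572-44980431, minus strand) and Cd3d (chr9:44981786-44987339, plus strand) point away from each other, with start sites 1.355 kb apart, and Cd3e (chr9:44998740-45009627) is on the minus strand. The 250 bases before each RefSeq start site (GRCm38.p6) are shown because these 3 chains are members of 1 complex and neighbors in the genome, yet the ratio of Cd3g to Cd3e did not overlap between the genotypes, as given further on. Capitals mark matches to AGGAAG, the core of ETS family sites, or to CAGNTG, an E-box, on either strand. The windows are chr9:44981536-44981785 for Cd3d, chr9:45009612-45009861 for Cd3e and chr9:44980432-44980681 for Cd3g.
Cd3d: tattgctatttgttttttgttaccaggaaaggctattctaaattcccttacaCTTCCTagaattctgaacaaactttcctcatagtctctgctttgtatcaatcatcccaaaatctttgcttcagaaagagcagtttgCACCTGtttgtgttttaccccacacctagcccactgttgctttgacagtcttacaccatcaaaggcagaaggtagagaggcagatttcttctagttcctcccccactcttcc
Cd3e: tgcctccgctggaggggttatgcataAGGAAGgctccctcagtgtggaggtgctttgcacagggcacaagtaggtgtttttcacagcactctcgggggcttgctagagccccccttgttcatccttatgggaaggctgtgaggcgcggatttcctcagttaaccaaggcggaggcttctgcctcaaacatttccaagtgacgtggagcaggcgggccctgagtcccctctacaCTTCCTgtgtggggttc
Cd3g: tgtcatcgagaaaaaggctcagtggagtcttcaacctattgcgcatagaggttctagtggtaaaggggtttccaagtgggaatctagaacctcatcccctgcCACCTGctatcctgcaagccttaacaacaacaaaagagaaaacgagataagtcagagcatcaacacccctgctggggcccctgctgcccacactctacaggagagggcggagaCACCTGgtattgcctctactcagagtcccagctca
AGGAAG occurred 1 time before Cd3d, 2 times before Cd3e and 0 times before Cd3g, and 29.5% of all 32851 windows of this length held it. CAGNTG occurred 1, 0 and 2 times in the same order, against 44.8% of all windows with a match. No window of the trio held TATAAA, found in 12.4% of all windows, or TGTGGT, a RUNX core found in 14.0%. These are matches of letters only.

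Cd3d, the CD3 δ chain, was 1.72, 5.27 and 7.69 TPM in WT TAM 1, 2 and 3 and 4.98, 3.51 and 0.95 TPM in C5aR-/- TAM 1, 2 and 3. Cd3e, the CD3 ε chain, was 3.26, 7.13 and 10.6 TPM in the WT libraries and 12, 5.38 and 3.44 TPM in the C5aR-/- libraries. Both chains were lowest in WT TAM 1 among WT libraries and highest in C5aR-/- TAM 1 among C5aR-/- libraries, and the groups overlapped. Mean Cd3e was 7.0 ± 3.68 TPM (SD, n = 3) in WT and 6.94 ± 4.49 TPM (n = 3) in C5aR-/- TAMs. The log2 difference, C5aR-/- minus WT throughout, was -0.04 ± 0.51 (SE) for Cd3e and -0.50 ± 0.57 for Cd3d.

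Cd3g, the CD3 γ chain, was 6.52, 14.98 and 30.03 TPM in WT TAM 1, 2 and 3 and 10.8, 5.93 and 4.16 TPM in the C5aR-/- libraries. Only WT TAM 1 lay within the C5aR-/- range, and the other WT libraries were above it. The means were 17.2 ± 11.9 TPM in WT and 6.97 ± 3.46 TPM in C5aR-/- TAMs (SD, n = 3 each). This was the member with the largest absolute log2 difference, -1.05 ± 0.55, and it did not pass the test (unadjusted p = 0.102, adjusted p = 0.438, limma; exact permutation p = 0.2).

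The CD8 coreceptor genes, 56.4 kb end to end on chromosome 6, were close to equal on average in both genotypes. Cd8a, the α chain, was 1.16, 3.61 and 4.02 TPM in WT TAM 1, 2 and 3 and 4.56, 2.15 and 2.27 TPM in the C5aR-/- libraries. Cd8b1, the β chain, was 1.12, 5.81 and 4.36 TPM in the WT libraries and 7.21, 1.66 and 2.17 TPM in the C5aR-/- libraries. For both, C5aR-/- TAM 1 was the highest and WT TAM 1 the lowest of the 6 libraries, so the groups overlapped. Log2 differences were 0.07 ± 0.41 for Cd8a and -0.05 ± 0.59 for Cd8b1. Cd8a per Cd8b1 ranged from 0.621 to 1.30 over the 6 libraries, with overlapping groups.

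Lck, the kinase that phosphorylates the CD3 motifs, was 3.26, 13.3 and 17.6 TPM in WT TAM 1, 2 and 3 and 15.1, 5.99 and 3.09 TPM in C5aR-/- TAM 1, 2 and 3. Cd28, the costimulatory receptor, was 1.97, 4.27 and 5.66 TPM in the WT libraries and 5.27, 2.24 and 0.67 TPM in the C5aR-/- libraries. The groups overlapped for both genes, and C5aR-/- TAM 1 was above WT TAM 2. Log2 differences were -0.43 ± 0.69 for Lck and -0.54 ± 0.54 for Cd28.

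Gzmb, which encodes the granule protease granzyme B, was 1.05, 3.03 and 3.16 TPM in WT TAM 1, 2 and 3 and 1.18, 1.20 and 1.96 TPM in the C5aR-/- libraries. Nkg7, a granule membrane protein of cytotoxic cells, was 5.15, 13.6 and 21.9 TPM in the WT libraries and 11.01, 5.65 and 6.74 TPM in the C5aR-/- libraries. For both genes WT TAM 1 was below all C5aR-/- libraries, and the other WT libraries were above all of them. Log2 differences were -0.43 ± 0.34 for Gzmb and -0.58 ± 0.50 for Nkg7. Ncr1, which encodes the NK receptor NKp46, was 0.34, 0.33 and 1.35 TPM in the WT libraries and 0.24, 0.66 and 0.29 TPM in the C5aR-/- libraries. It reached 1 TPM only in WT TAM 3, failed the filter of 1 TPM in at least 3 libraries, and was not tested.

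**Figure D1:**
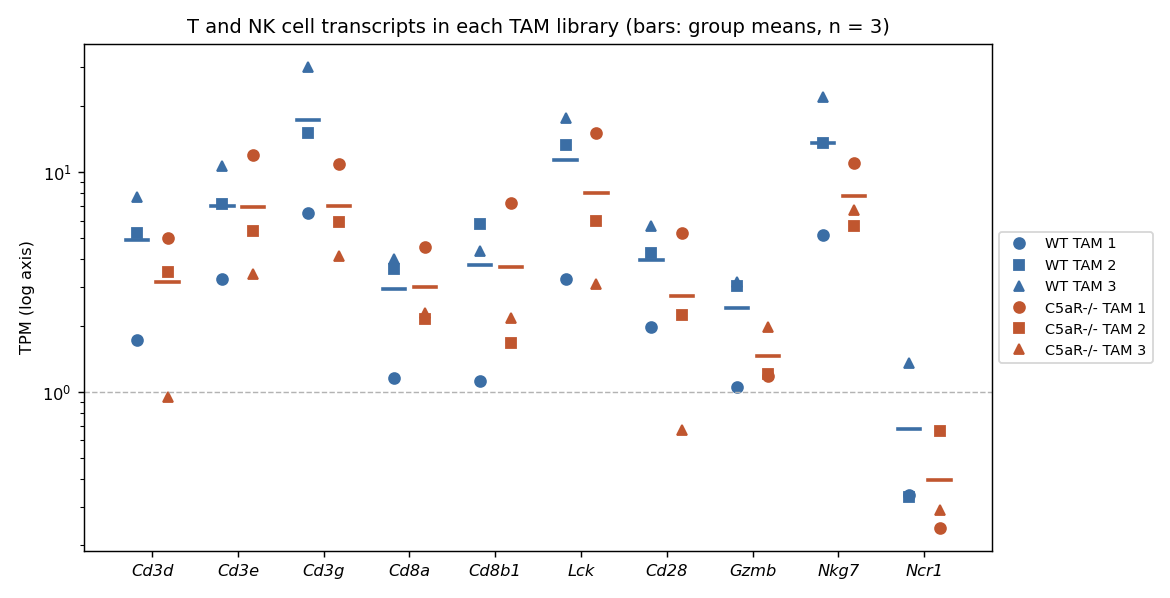
TPM of each member in each library (log axis), WT in blue and C5aR-/- in orange, with circles, squares and triangles for TAM 1, 2 and 3 and horizontal bars for group means (n = 3). The groups overlap for all 10 genes, and WT TAM 1 is the lowest WT library in each of them except Ncr1, where WT TAM 1 and 2 were 0.34 and 0.33 TPM.

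In order of mean WT level, Cd3g (17.2 TPM), Nkg7 (13.6 TPM) and Lck (11.4 TPM) led, followed by Cd3e (7.0 TPM), Cd3d (4.89 TPM), Cd28 (3.97 TPM), Cd8b1 (3.76 TPM), Cd8a (2.93 TPM), Gzmb (2.41 TPM) and Ncr1 (0.673 TPM). Each neighboring pair in that order differed by less than the SD between WT libraries of at least 1 of its genes, apart from Gzmb and Ncr1, whose gap was larger than both SDs. In C5aR-/- TAMs the leading members were Lck (8.04 TPM), Nkg7 (7.80 TPM), Cd3g (6.97 TPM) and Cd3e (6.94 TPM), and their SDs of 6.24, 2.83, 3.46 and 4.49 TPM were larger than the gaps between them.

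A gene was called when its level changed by 2-fold or more and its p was below 0.05. By the adjusted p, 0 of the 9 members tested were called, and 0.0% of 14776 tested genes were (limma). By the unadjusted p, 0 members were called against 4.96% of all tested genes, and 0 had an unadjusted p under 0.05 at any fold. Adjusted p-values of the members ran from 0.438 to 0.978. The groups did not overlap for 0 of the 10 members, against 21.3% of all tested genes. Exact permutation p-values (two-sided, n = 3 against 3) ran from 0.2 to 1.0 over the 10 members, where the smallest p this design allows is 0.1. The log2 difference was below 0 for 8 of 9 members, compared with 55.5% of all tested genes, with a median of -0.43 for the members and -0.05 for all tested genes. In bulk RNA, fewer cells of a type and less RNA per cell cannot be told apart.

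The members' spread lay mostly within the genotypes. Genotype accounted for a median of 11.4% of a member's variance over the 6 libraries on the log2 scale, compared with 22.0% over all tested genes. The SD over the 6 libraries had a median of 0.77 for members and 0.32 for all tested genes. WT TAM 1 was the lowest WT library for 9 of 9 members tested (48.9% of all tested genes), and C5aR-/- TAM 1 was the highest C5aR-/- library for 8 of 9 (39.6% of all tested genes). Both held for 8 of 9 members and for 16.9% of all tested genes. The exception was Gzmb, which was highest in C5aR-/- TAM 3.

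By library, the mean log2(TPM + 1) of the 9 members was 1.77, 2.97 and 3.32 in WT TAM 1, 2 and 3, and 2.97, 2.12 and 1.79 in C5aR-/- TAM 1, 2 and 3. Summed TPM of the 10 members was 25.6, 71.3 and 106.4 in the WT libraries and 72.3, 34.4 and 25.7 in the C5aR-/- libraries. WT TAM 1 and C5aR-/- TAM 3 were thus near the same low level, and WT TAM 2 and C5aR-/- TAM 1 near the same higher one. For each of the 36 pairs of tested members, 9 to 15 of the 15 library pairs were in the same order, with a median of 12. Lck and Cd28 ordered all 15 library pairs alike, while Cd3g and Cd8b1 did so for 9.

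Without WT TAM 1, the median log2 difference of the members moved from -0.43 to -0.87 and 9 of 9 were below 0. Cd3g (-1.57 ± 0.46, unadjusted p = 0.0159, adjusted p = 0.32, limma) and Nkg7 (-1.10 ± 0.35, unadjusted p = 0.0221, adjusted p = 0.338) then passed the unadjusted threshold, where 3.43% of all tested genes were called in that direction. The groups did not overlap for 4 members, Cd3d, Cd3g, Gzmb and Nkg7, where 21.9% of all tested genes lay lower in C5aR-/- TAMs without overlap. WT TAM 1 was the lowest WT library for 9 of 9 members tested, so leaving it out had to raise their WT means. These calls and separations are therefore no support for a difference. Without C5aR-/- TAM 1 the median of the members was -0.83 with 0 called, and without C5aR-/- TAM 3 it was -0.03.

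Among 69 other T and NK cell genes listed by role, 52 passed the filter. Of these, 41 had a log2 difference below 0 and 11 above, with a median of -0.33. Over all tested genes 55.5% were below 0, with a median of -0.05. By the unadjusted p, 1 was called lower in C5aR-/- TAMs, where 2.84% of all tested genes were called in that direction, and 0 were higher, where the share was 2.13%. WT TAM 1 was the lowest WT library for 43 of the 52 and C5aR-/- TAM 1 the highest C5aR-/- library for 41, with both in 34. The list thus showed the library pattern of the members in part.

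In the remainder of the T cell receptor complex, Cd247, the CD3 ζ chain, was 3.10, 8.56 and 8.56 TPM in WT TAM 1, 2 and 3 and 7.92, 5.21 and 3.22 TPM in the C5aR-/- libraries. Trac, the receptor α constant gene, was 10.4, 16.0 and 21.9 TPM in the WT libraries and 16.4, 15.1 and 8.99 TPM in the C5aR-/- libraries. The β constant genes Trbc1 and Trbc2 are near-identical copies whose reads may be split between them in an uncertain way. Trbc1 was 3.17, 11.2 and 13.2 TPM in the WT libraries and 14.5, 4.15 and 3.44 TPM in the C5aR-/- libraries, and Trbc2 was 6.56, 21.2 and 29.9 TPM and then 25.4, 9.14 and 1.70 TPM. All of these genes had overlapping groups, log2 differences from -0.95 ± 0.89 (Trbc2) to -0.22 ± 0.33 (Trac), and their lowest WT value in WT TAM 1.

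Cd4, the coreceptor of helper T cells, which some macrophages and dendritic cells also carry, was also lowest in WT TAM 1 among WT libraries but had another order in C5aR-/- TAMs. It was 1.85, 4.77 and 11.5 TPM in the WT libraries and 5.22, 17.8 and 1.24 TPM in the C5aR-/- libraries, so C5aR-/- TAM 2 was the highest of the 6. Cd4 per Cd3e was 3.30 in C5aR-/- TAM 2 and between 0.360 and 1.08 in the other libraries.

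Of the genes for T cell signaling proteins, 12 of the 13 tested had a log2 difference below 0, with a median of -0.39 and 0 called. Among surface and checkpoint receptors it was 12 of 16, with a median of -0.36, and among transcription factors 3 of 4, with a median of -0.26. The cytotoxic effectors had 6 of 8 below 0, with a median of -0.50, and the NK receptors and their adaptors 4 of 6, with a median of -0.11. Over all tested genes 55.5% had a log2 difference below 0, and 4.96% were called at the unadjusted threshold. The genes of a list share the same libraries, so they are not separate observations. None of these genes passed the adjusted threshold, nor did any of all tested genes. The lowest adjusted p in these lists was 0.210 (limma).

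Of the cytotoxic genes, Gzma (granzyme A) was 1.14, 2.35 and 6.14 TPM in the WT libraries and 2.18, 1.34 and 1.88 TPM in the C5aR-/- libraries. Prf1, the pore-forming perforin, was 0.25, 1.43 and 1.26 TPM in WT and 1.45, 1.17 and 2.52 TPM in C5aR-/- TAMs. Klrb1c, which encodes NK1.1, was 0.50, 0.88 and 1.37 TPM in WT and 1.10, 1.16 and 0.19 TPM in C5aR-/- TAMs. Their log2 differences were -0.42 ± 0.45, 0.48 ± 0.35 and -0.10 ± 0.34, and the groups overlapped for each. Klrb1c and Ncr1 were at most 1.37 and 1.35 TPM in the 6 libraries, while Klrk1, an activating receptor that CD8+ T cells also carry, was 4.39 to 9.47 TPM, a gene picked after its values were seen.

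The groups did not overlap for 3 of the 52 genes, 1 lower and 2 higher in C5aR-/- TAMs, against 12.5% and 8.84% of all tested genes. Cd2, a lymphocyte adhesion receptor, was 27.5, 22.9 and 16.1 TPM in WT TAM 1, 2 and 3 and 15.9, 5.77 and 2.08 TPM in the C5aR-/- libraries. Its log2 difference was -1.68 ± 0.59 (unadjusted p = 0.026, adjusted p = 0.283, limma). Its highest value was in WT TAM 1, the WT library in which the members were lowest. Tigit, an inhibitory receptor, was 2.35, 5.33 and 5.73 TPM in WT and 6.36, 7.97 and 6.46 TPM in C5aR-/- TAMs, a log2 difference of 0.60 ± 0.31 (adjusted p = 0.433, limma). Sh2d1b1, an adaptor of SLAM family receptors known from NK cells, was 0.18, 0.55 and 0.93 TPM in WT and 1.77, 1.82 and 2.41 TPM in C5aR-/- TAMs. Its log2 difference was 0.97 ± 0.27 (unadjusted p = 0.010, adjusted p = 0.210, limma). Sh2d1b1 reached 1 TPM only in C5aR-/- libraries, so it passed the filter through the group where it was high. Given that, its groups could not overlap, and neither its place in the count nor its p is support for a difference. Il2ra, Klrg1 and the granzyme gene Gzmm were lower in C5aR-/- TAMs without overlap but failed the filter, so they are outside the count.

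**Figure D2:**
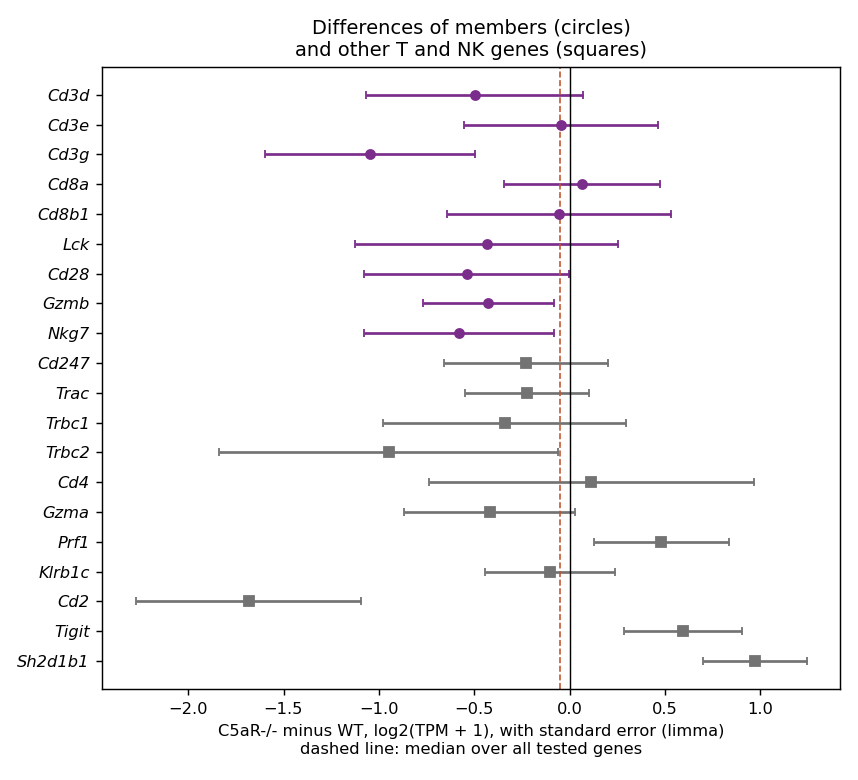
Log2 differences (C5aR-/- minus WT, log2(TPM + 1)) with standard errors from limma for the 9 tested members (purple circles) and for named other T and NK genes (gray squares). The dashed line is the median of all tested genes, -0.05, and the members run from -1.05 (Cd3g) to 0.07 (Cd8a).

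The markers of other cells differed between libraries as well. Summed TPM of 10 macrophage markers was 8022, 3171 and 2082 in WT TAM 1, 2 and 3 and 7496, 4286 and 1956 in C5aR-/- TAM 1, 2 and 3. In WT TAMs the library with the most macrophage marker signal, WT TAM 1, had the lowest member levels, whereas in C5aR-/- TAMs the library with the most, C5aR-/- TAM 1, had the highest. Summed TPM of 8 B cell markers was 169, 193 and 40.9 in the WT libraries and 195, 67.7 and 12.5 in the C5aR-/- libraries. B cell signal thus went with the members in C5aR-/- TAMs and not in WT TAM 1 or 3. For 7 epithelial or mesothelial markers the sum was 1785, 1880 and 1942 TPM in WT and 2329, 1971 and 1899 TPM in C5aR-/- TAMs. It was close to the macrophage sum in WT TAM 3 and C5aR-/- TAM 3, and well below it in the other libraries. Signal from markers of cells other than leukocytes was thus high in every library, and its source was not tested. The part of these cell types in the members' levels was not tested either.

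Summed TPM of 6 neutrophil markers was 943, 2315 and 612 in the WT libraries and 202, 385 and 26.7 in the C5aR-/- libraries, without overlap. The mast cell protease Mcpt4 was 12.4, 12.02 and 22.4 TPM in WT TAMs and 0.25 TPM in C5aR-/- TAM 1, and was listed at 0 in C5aR-/- TAM 2 and 3. Kit, the stem cell factor receptor in the same list, lay the other way, at 28.9, 33.1 and 29.8 TPM in WT and 54.7, 68.0 and 85.4 TPM in C5aR-/- TAMs. Of the 7 mast cell markers tested, 5 had a log2 difference below 0 and 2 above. By the unadjusted p, 5 were called lower and 1 higher, against 2.84% and 2.13% of all tested genes. The sum over 8 ranged from 86.9 to 141 TPM in WT and from 61.6 to 90.5 TPM in C5aR-/- TAMs, with overlap. Kit made up most of that sum in each C5aR-/- library. The mean log2(TPM + 1) of the 8 was 3.27, 2.97 and 3.42 in WT and 1.48, 1.37 and 1.26 in C5aR-/- TAMs, without overlap. Ptprc, which encodes the pan-leukocyte CD45, was 67.5, 77.0 and 60.3 TPM in the WT libraries and 102.5, 59.9 and 29.4 TPM in the C5aR-/- libraries, with C5aR-/- TAM 1 highest and C5aR-/- TAM 3 lowest of the 6.

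**Figure D3:**
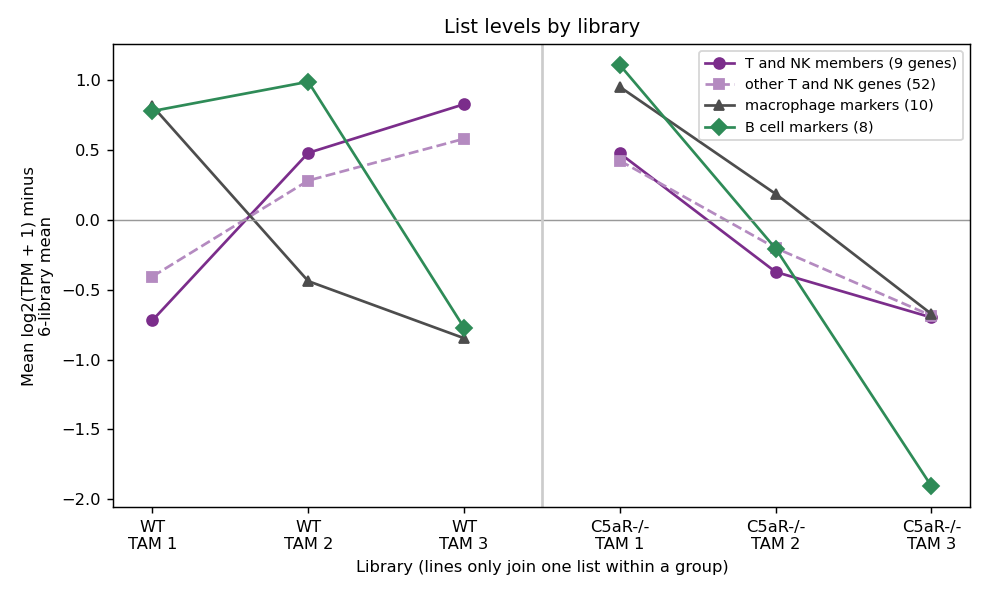
Mean log2(TPM + 1) of each list in each library, minus its mean over the 6 libraries, for the 9 tested members, 52 other T and NK genes, 10 macrophage markers and 8 B cell markers; lines only join the points of a list within a genotype. In WT TAM 1 macrophage markers are high and members low (1.77 before centering), and in C5aR-/- TAM 1 both are high (members 2.97).

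Ratios within a library do not depend on how the libraries are scaled. Relative to the macrophage marker, Cd3e per 100 TPM of Adgre1 was 2.85, 15.6 and 41.9 in WT TAM 1, 2 and 3 and 13.2, 13.4 and 12.3 in C5aR-/- TAM 1, 2 and 3. The highest C5aR-/- value was 1.09 times the lowest, and the highest WT value 14.7 times the lowest. For each of the 10 members the range of this ratio was wider in WT, 12.96- to 24.3-fold between libraries, than in C5aR-/- TAMs, 1.09- to 6.25-fold. Of all 6 libraries, WT TAM 3 was highest for 10 members and WT TAM 1 lowest for 9. The members share the same Adgre1 values and the same libraries, so they are not 10 separate observations, and the difference in spread was not tested.

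Relative to CD45, the summed CD3 γ, δ and ε chains per 100 TPM of Ptprc were 17.0, 35.5 and 80.2 in the WT libraries and 27.1, 24.8 and 29.0 in the C5aR-/- libraries. The C5aR-/- values lay inside the WT range and within 1.17-fold of one another, and the difference of the means had an exact permutation p of 0.6 (n = 3 against 3). On this scale too, WT TAM 1 was lowest and WT TAM 3 highest of all 6 libraries.

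The balance of members within a library was described by the ratio of the other 9 to Cd3e, a choice made after the values had been seen. Cd3g per Cd3e was 2.00, 2.10 and 2.83 in WT TAM 1, 2 and 3 and 0.902, 1.10 and 1.21 in C5aR-/- TAM 1, 2 and 3. The groups did not overlap, and the means were 2.31 ± 0.45 and 1.07 ± 0.16 (SD, n = 3 each). Cd28 per Cd3e was 0.604, 0.599 and 0.533 in the WT libraries and 0.439, 0.416 and 0.195 in the C5aR-/- libraries, again without overlap. For both ratios the exact permutation p was 0.1, the smallest this design allows, and 0.45 after Benjamini-Hochberg adjustment over the 9 ratios.

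These were 2 of the 9 ratios, both lower in C5aR-/- TAMs. Over 14297 genes, whatever their relation to Cd3e, the ratio was lower without overlap for 2.47% and higher for 0.818%. That share is not a like comparison. Cd3e varied 3.68-fold between libraries, and this spread enters the ratio of a gene that does not move with Cd3e. It cancels for genes that do, as many members did, so the 2 of 9 cannot be read as more than expected. Cd3d per Cd3e was 0.528, 0.739 and 0.724 in WT and 0.415, 0.652 and 0.276 in C5aR-/- TAMs, with overlap (exact permutation p = 0.2). Lck, Nkg7, Gzmb, Cd8a, Cd8b1 and Ncr1 per Cd3e overlapped as well, with exact permutation p-values from 0.3 to 1.0. These ratios depend on the transcript models used for each gene, whose part was not tested.

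**Figure D4:**
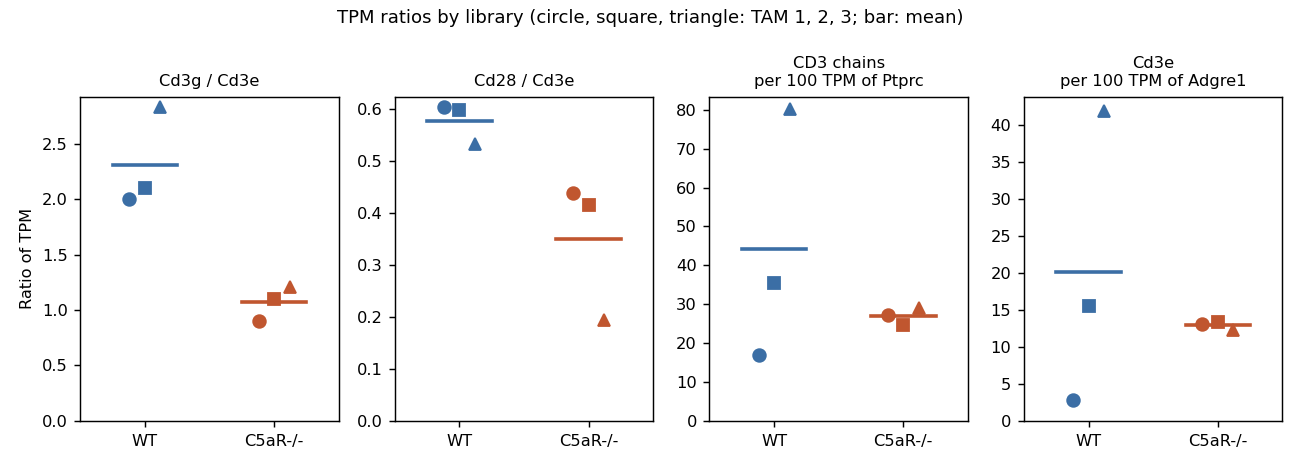
TPM ratios in each library (linear axes from 0; circle, square and triangle for TAM 1, 2 and 3; bars for group means, n = 3). Cd3g per Cd3e and Cd28 per Cd3e do not overlap between genotypes, while the CD3 γ, δ and ε chains per 100 TPM of Ptprc and Cd3e per 100 TPM of Adgre1 spread widely in WT (17.0 to 80.2 and 2.85 to 41.9) and little in C5aR-/- TAMs (24.8 to 29.0 and 12.3 to 13.4).

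Genes whose pattern was most like that of Cd3e were found by the mean absolute difference of centered log2(TPM + 1) values over the 6 libraries, among 3663 genes with a similar spread. After a gene with no symbol in the tables used (0.143), these were Sh2d2a (0.164), a T cell adaptor, Actn2 (0.166), Atp9a (0.171) and Prkcq (0.172), the protein kinase C θ of T cells. Sh2d2a was 1.99, 5.08 and 4.70 TPM in WT and 7.71, 3.53 and 2.57 TPM in C5aR-/- TAMs. Of the members, Cd8a ranked 34th and Cd28 67th in likeness to Cd3e, whereas Cd3g ranked 970th.

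The same search was made for Gzmb, among 5607 genes with a spread similar to its own. The nearest were Zbtb26 (0.069), Gm49066 (0.075), Zfp101 (0.085), Pld6 (0.087) and Zfp119b (0.093). Of the members, only Cd8a (1286th) and Cd3e (3182nd) were candidates, and the other tested members were left out for their wider spread. By order of libraries, Gzmb matched each other tested member in 10 to 13 of 15 library pairs, with 13 for Nkg7. Zfp101 was 6.14, 10.9 and 14.2 TPM in WT and 6.92, 6.49 and 9.94 TPM in C5aR-/- TAMs, so like Gzmb it was higher in C5aR-/- TAM 3 than in the other C5aR-/- libraries. With 6 libraries and so many candidates, close matches are found for many genes, and these are a description only.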

How the data were processed

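RNA-seq of TAMs sorted from ID8 tumors gave 6 libraries, 3 WT and 3 C5aR-/-, grouped by the sample titles. The authors deposited TPM per gene, which sums to 1000000 in each library. The submitters' processing notes name fastp, HISAT2, StringTie, RSEM, DESeq2 and mm10, and the paper adds gffcompare, edgeR and FPKM values. Versions are not given in the sources used here. The deposited group means equal the mean of the 3 libraries and were not used. The paper's figure legend gives another number of mice per group than the 3 libraries analysed here. Count tests need reads and were not run on TPM.

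Symbols and coordinates came from GENCODE M21 (GRCm38), and 52073 of 56980 genes matched a symbol. Promoters came from RefSeq, with a window for 8 of the 10 members. Tests used limma 3.58.1 in R 4.3.3 (lmFit, eBayes with trend) on log2(TPM + 1), over genes with at least 1 TPM in at least 3 libraries, with Benjamini-Hochberg adjustment over all 14776. A log2 difference on this scale understates the change of low genes. The fit was tested on simulated data. Exact permutation tests (two-sided) used scipy 1.17.1, tables pandas 2.3.3, numpy 2.4.6 and Python 3.11.15, and figures matplotlib 3.10.9.

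Members and gene lists were chosen with earlier results of these data known. Named were all members, receptor constant and CD3 ζ genes, Cd4, Prf1, Gzma, Klrb1c, up to 4 listed genes per direction with the largest difference and no overlap, up to 3 genes of a marker list whose level moved with a member, Adgre1, Ptprc, C5ar1, and the 5 genes most like Cd3e and Gzmb. Mcpt4 and Kit were named outside this rule, since the mast cell sum did not follow the members. Alternatives were the pseudocount, the filter, 2 scalings, the replicate block, eBayes without trend, and each library left out. Scaling to Ptprc was added after seeing the data.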

Additional observations from a re-analysis of the deposited data

How the results depend on the processing

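No member was called, with either pseudocount, either filter, no filter, any scaling, the replicate block or eBayes without trend. Leaving out 1 library gave 0 to 2 members called at the unadjusted threshold, 0 to 4 without overlap, member medians from -0.87 to -0.03 and medians of the other T and NK genes from -0.66 to -0.01. The 4 were found without WT TAM 1, where 21.9% of all tested genes lay lower in C5aR-/- TAMs without overlap. There was 1 each without C5aR-/- TAM 1 (Cd3g) and without C5aR-/- TAM 2 (Ncr1). Ncr1 had failed the filter, and it was then 0.24 and 0.29 TPM against a lowest WT value of 0.33 TPM. For the sets with a C5aR-/- library left out, the share over all genes was not computed. Smaller groups separate more easily, so nothing is read from these counts. Leave-one-out ranges stayed below 0 for 5 members (Cd3d, Cd3g, Cd28, Gzmb and Nkg7) and crossed it for Cd3e (-0.47 to 0.30), Cd8a (-0.32 to 0.29), Cd8b1 (-0.56 to 0.28) and Lck (-1.08 to 0.024). Quantile normalization turned Cd8b1 to 0.021, and median-of-ratios scaling turned Cd3e to 0.00032. Scaling to Ptprc, chosen after seeing the data, moved the median of all genes to 0.20 and gave 0.16 for Cd3e, 0.12 for Cd8b1 and -0.24 for the median of the members. Lower calls outnumbered higher ones over all genes (419 and 314), with 371 and 386 after quantile normalization, 383 and 354 after median-of-ratios scaling, 647 and 619 without C5aR-/- TAM 1, and 294 and 536 after scaling to Ptprc.

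Of all genes, 733 were called at the unadjusted threshold, 475 with a filter of 5 TPM, which tests fewer genes, and 567 to 1266 with 1 library left out, the 1266 without C5aR-/- TAM 1. At the adjusted threshold 0 genes were called (limma, 2133 at an unadjusted p under 0.05), 2 by eBayes without trend, 83 after scaling to Ptprc, and 0 to 356 with 1 library left out, the 356 without C5aR-/- TAM 1. The cause of these changes was not tested. Whether replicate numbers pair the libraries could not be settled from so few correlations. Those of same-numbered libraries were 0.19, -0.01 and 0.27. WT TAM 1 and WT TAM 3 went best with the C5aR-/- library of the same number, and WT TAM 2 went best with C5aR-/- TAM 1 (0.09). The replicate block gave 811 unadjusted and 0 adjusted calls, 0 members called and a member median of -0.43. Overlap was not recomputed under settings that leave TPM unchanged. TPM without depth limits what can be said of values near 1 TPM.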

Other observations

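Several low NK and activation genes that failed the filter had values apart from the rest, and were picked after their values were seen. Klra4, a Ly49 receptor gene from a family of near-identical copies whose reads may be assigned uncertainly, was 0.14, 0.59 and 0.90 TPM in WT TAM 1, 2 and 3 and 0.10, 3.21 and 10.9 TPM in C5aR-/- TAM 1, 2 and 3. Klrg1, an inhibitory receptor, was 0.30, 0.23 and 0.65 TPM in WT and was listed at 0 and then at 0.05 and 0.05 TPM in C5aR-/- TAMs. Il2ra, the interleukin-2 receptor α chain, was 1.30, 0.71 and 0.79 TPM in WT and 0.22, 0.39 and 0.14 TPM in C5aR-/- TAMs. Among genes that passed the filter, Ifng was 1.10, 6.43 and 18.1 TPM in WT and 3.25, 2.60 and 1.90 TPM in C5aR-/- TAMs, with overlapping groups.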
